A study of Danio rerio with 2 samples.

Results

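The subunits of the vacuolar proton pump and of the sodium pump were examined in zebrafish larvae homozygous for the lri12 mutation and in their wild-type clutch-mates. Members were all loci of the deposited table with a gene symbol starting with atp6v, atp6ap, atp1a or atp1b, which gave 34 loci among 40114. Of these, 19 belong to the proton pump and 15 to the sodium pump. All 34 passed the filter on low values, which asks for 1 FPKM on average of the 2 pools, and all are marked as tested in the deposited table. The lri12 mutant group was 1 pool of 20 whole larvae and the wild-type group was 1 pool of 20 whole siblings, both at 5 days post-fertilization and raised at the same temperature. The gene that carries the lri12 mutation is not named in the labels, so the genotype could not be checked from it. With 1 pool per genotype there is no replicate, no test was made, and each difference below is a difference between 2 libraries.

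The vacuolar proton pump, or V-ATPase, burns ATP to push protons into lysosomes, endosomes and synaptic vesicles, and across the outer membrane of acid-secreting cells such as skin ionocytes. Its V1 part sits in the cytoplasm and splits ATP, and its V0 part sits in the membrane and carries the protons. The sodium pump, or Na,K-ATPase, exchanges sodium for potassium across the cell membrane. Its alpha subunit splits ATP and moves the ions, and its beta subunit brings alpha to the cell surface. In larvae it serves nerve, muscle, kidney and the ionocytes that take up salt through the skin.

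The 19 selected proton pump loci stood at nearly the same level in both pools, subunit by subunit. The a3 subunit locus tcirg1, whose symbol fell outside the selection, was 1.44-fold lower in the mutant. It was low in both pools, at 4.18 FPKM in the mutant and 6.44 FPKM in wild type. Of the proton pump gene models in capital letters, also outside the selection, the 7 with enough signal stood within 1.2-fold. The sodium pump loci stood within 1.2-fold, apart from 2 alpha1 loci that belong to a run of copies on chromosome 1. One of these, atp1a1a.4, was 1.51-fold lower in the mutant, and the other, atp1a1a.3, was 1.28-fold higher. Folds are those of FPKM + 1. FPKM is a fragment count set against the length of the transcript and the size of the library, so levels of different genes can be set side by side. None of the 34 loci differed by 2-fold, as 0.915% of all 18902 loci with a symbol and enough signal did. A difference of at least 1.2-fold, which is what "1.2-fold higher" or "lower" means below, was met by 2 of the 34, against 13.5% of all those loci. Both were among the 15 sodium pump loci, so the share within that pump was near the share of all loci. In the authors' deposited table the p-values of the 34 lay between 0.0379 and 0.9973, and each had a q-value of 0.999. Whole bodies were measured, so fewer cells of a type and less RNA per cell cannot be told apart.

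**Figure D1:**
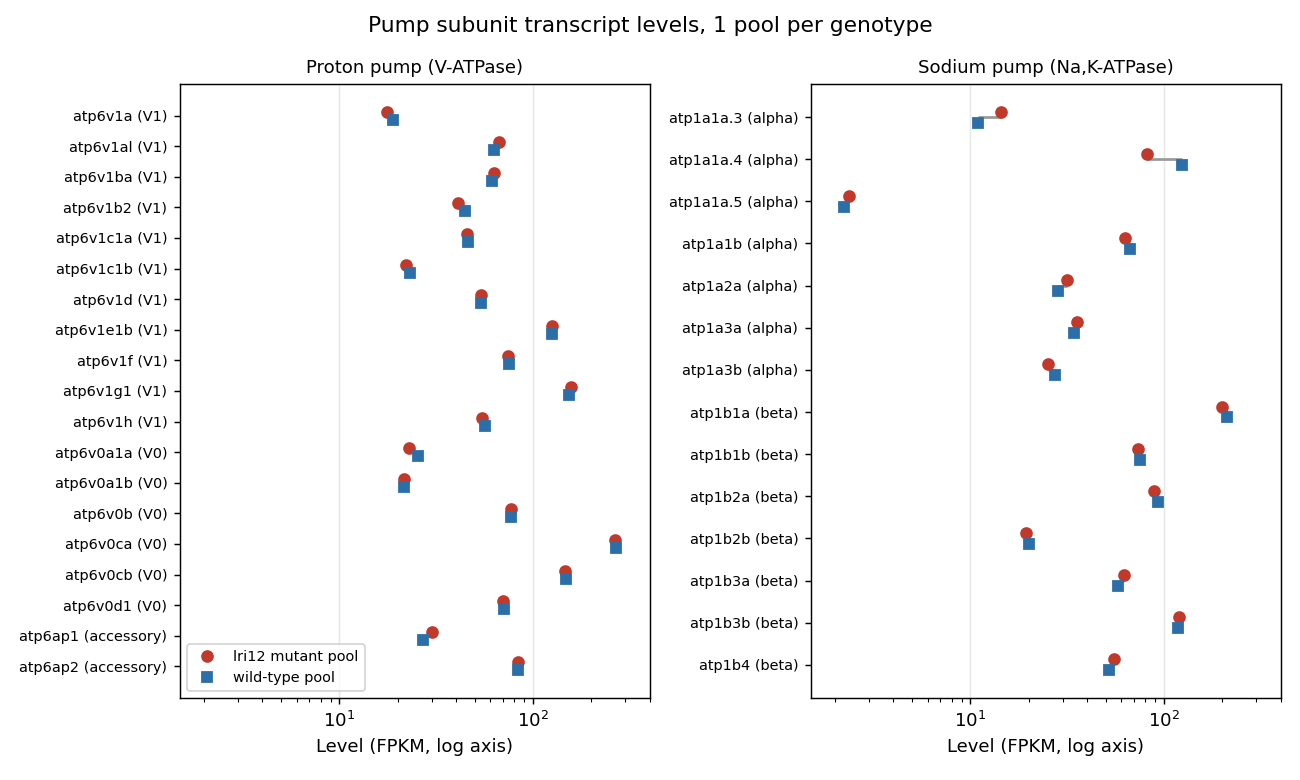
Level of 33 pump loci in FPKM (log axis), with red circles for the lri12 mutant pool and blue squares for the wild-type pool. The paired symbols lie close together for every proton pump locus shown. They are visibly apart for atp1a1a.4 (81.5 against 123 FPKM) and atp1a1a.3 (14.3 against 11.0 FPKM).

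Sequencing depth in absolute terms is unknown, since the values carry no read counts. The table holds 1786 loci that were too low to be tested but above 0 in both libraries. Their log2 ratios piled up at -0.15 (mutant over wild type), where 253 of them lay within 0.01. Were those loci to hold equal read numbers, the mutant library would be 1.11 times as deep as the wild-type library. Over all loci with a symbol that entered, the median log2 difference was 0.0044, close to 0.

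Within V1, the A and B subunits form the head that binds and splits ATP. The A subunit was given by 2 loci. The more abundant, atp6v1al, had 66.7 FPKM in the mutant and 63.1 FPKM in wild type, and atp6v1a had 17.6 FPKM in the mutant and 18.8 FPKM in wild type. Together they summed to 84.4 FPKM in the mutant and 82.0 FPKM in wild type. The small differences of the A loci thus pointed opposite ways. The locus of atp6v1a is long, at 187389 bases (chromosome 24, 21700607 to 21887995, Zv9), and 7 other gene models overlap it, so its value is the less certain of the pair.

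The B subunit was split between atp6v1ba, with 63.2 FPKM in the mutant and 61.6 FPKM in wild type, and atp6v1b2, with 41.2 FPKM in the mutant and 44.4 FPKM in wild type. In mammals the B1 form is that of acid-secreting cells and the B2 form is widespread, and RefSeq lists vatB1 as another name of atp6v1ba and vatB2 as one of atp6v1b2. The B1-type locus made up 60.5% of the B sum in the mutant and 58.1% in wild type. The largest log2 difference within V1, -0.10, was that of atp6v1b2.

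The other V1 subunits form the turning shaft, the outer stalks and the brake. The shaft subunits D and F stood at 53.9 FPKM (atp6v1d) and 74.3 FPKM (atp6v1f) in the mutant, against 53.8 FPKM and 75.2 FPKM in wild type. The stalk subunits E and G were the most abundant of V1. The locus atp6v1g1 had 157 FPKM in the mutant and 153 FPKM in wild type, and atp6v1e1b had 126 FPKM in the mutant and 125 FPKM in wild type. The C subunit, which joins V1 to the membrane part, came from atp6v1c1a, with 45.5 FPKM in the mutant and 46.2 FPKM in wild type, and atp6v1c1b, with 22.2 FPKM in the mutant and 23.2 FPKM in wild type. The H subunit, which holds detached V1 inactive, stood at 54.8 FPKM in the mutant and 56.3 FPKM in wild type (atp6v1h). All 11 V1 loci summed to 722 FPKM in the mutant and 721 FPKM in wild type, and 5 of the 11 were higher in the mutant and 6 lower.

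Within V0, the proteolipid c subunit builds the ring that turns as protons pass. The locus atp6v0ca (chromosome 3, 15664660 to 15675444) was the most abundant of the whole pump and had 267 FPKM in each pool, with a log2 difference of -0.0017. Its copy atp6v0cb (chromosome 24, 40734283 to 40751748) had 146 FPKM in the mutant and 149 FPKM in wild type. The summed c loci stood at 4.89 times the summed A loci in the mutant and at 5.08 times in wild type. Each assembled pump holds more c subunits than A subunits, but whether transcript levels follow subunit numbers was not tested.

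The remaining V0 loci were less abundant. The related proteolipid atp6v0b had 77.2 FPKM in the mutant and 76.9 FPKM in wild type, and atp6v0d1, whose product links the ring to the shaft, had 70.3 FPKM in the mutant and 70.7 FPKM in wild type. The a subunit lines the proton path, and its a1 form has been studied in zebrafish microglia, where it takes part in the fusion of phagosomes with lysosomes. One a1 locus, atp6v0a1b, had 21.6 FPKM in the mutant and 21.7 FPKM in wild type. The other, atp6v0a1a, had 22.9 FPKM in the mutant and 25.4 FPKM in wild type, a log2 difference of -0.14 that was the furthest from 0 among the 19 proton pump loci. The 6 V0 loci summed to 605 FPKM in the mutant and 611 FPKM in wild type.

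The accessory proteins help the pump assemble and reach its membranes. The locus atp6ap2, which encodes the protein also known as the prorenin receptor, had 83.8 FPKM in the mutant and 83.9 FPKM in wild type. The locus atp6ap1 had 29.9 FPKM in the mutant and 27.1 FPKM in wild type, a log2 difference of 0.14 that was the highest of the proton pump.

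Taking the 19 proton pump loci as a list, 0 were 1.2-fold higher and 0 were 1.2-fold lower, and the median log2 difference was -0.0044, with 7 above 0 and 12 below. Their mean levels ran from 18.2 to 267 FPKM. Among all 3568 loci in that range, 5.86% were 1.2-fold higher and 8.97% were 1.2-fold lower, together 14.8%. By a narrower rule chosen after the values were seen, 17 of the 19 stood within 1.1-fold, while 35.1% of the loci in that range were past it. The median size of a proton pump difference, sign aside, was 0.028 on the log2 scale, against 0.097 for the loci in the range.

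**Figure D2:**
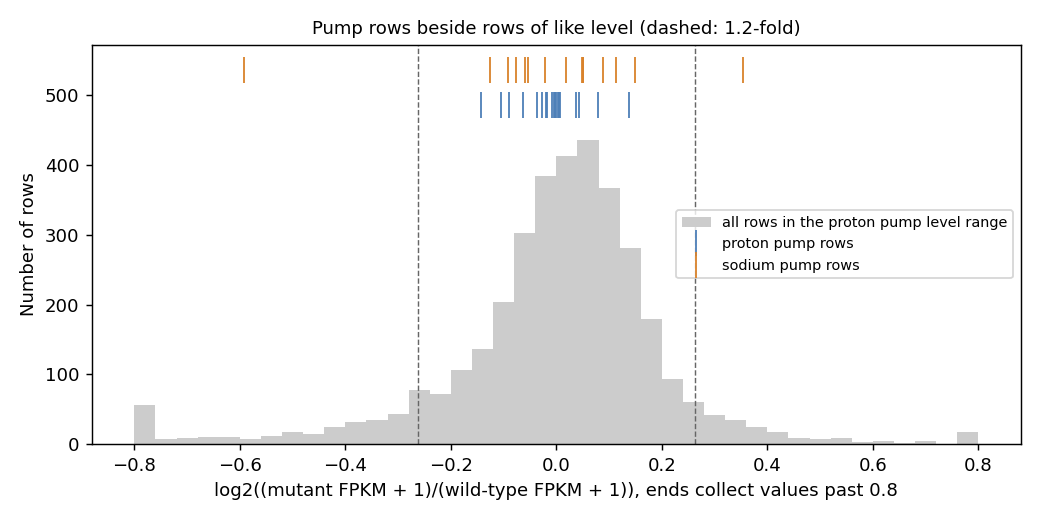
Number of loci (vertical axis) by log2 difference between the lri12 mutant pool and the wild-type pool, for all 3568 loci in the level range of the proton pump (grey), with ticks for the proton pump (blue) and sodium pump (orange) loci. All blue ticks lie between the dashed 1.2-fold lines, and 1 orange tick lies outside them on each side. The orange ticks include atp1a1a.3 and atp1a1a.5, whose means of 12.7 and 2.29 FPKM are below that level range.

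A further 8 gene models carry proton pump symbols in capital letters and fall outside the rule. Of these, 7 entered, and none met 1.2-fold. The e subunit of V0 was among them, with 74.3 FPKM in the mutant and 71.8 FPKM in wild type for ATP6V0E1, and 95.0 FPKM in the mutant and 89.5 FPKM in wild type for ATP6V0E2. The a2 loci were low: ATP6V0A2 (1 of 2) had 3.88 FPKM in the mutant and 3.67 FPKM in wild type, and ATP6V0A2 (2 of 2) had 3.03 FPKM in the mutant and 3.34 FPKM in wild type. The accessory loci ATP6AP1L (1 of 2), ATP6AP1L (2 of 2) and ATP6AP1 (1 of 2) had log2 differences of -0.19, -0.17 and 0.08. The locus ATP6V1C2 was under the filter, at 0.514 FPKM in the mutant and 0.501 FPKM in wild type. RefSeq names a second E subunit locus, atp6v1e1a, by a synonym that the table uses, si:ch211-266k8.3, and it had 15.0 FPKM in the mutant and 14.9 FPKM in wild type.

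Among the sodium pump's alpha subunits, alpha1 is the widespread form, and zebrafish carry a run of alpha1 copies on chromosome 1 of which different ones serve different ionocytes. Of this run, 3 loci are described, each with 1 symbol. From low to high coordinate these are atp1a1a.4 (1446560 to 1462945), atp1a1a.3 (1562079 to 1572446) and atp1a1a.5 (1594949 to 1606890). The copies are similar in sequence, and no source used here says how reads that match several of them were divided.

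The locus atp1a1a.4 had 81.5 FPKM in the mutant and 123 FPKM in wild type. This was the widest gap among all 34 loci, a log2 difference of -0.59, and 1.72% of all entering loci stood at or below that value. In the authors' deposited table its p-value was 0.0379, the single one under 0.05 among the 34, and its q-value was 0.999.

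In the same run, atp1a1a.3 had 14.3 FPKM in the mutant and 11.0 FPKM in wild type. Its log2 difference of 0.35 was the highest of the 34, and 97.0% of all entering loci stood at or below it. The authors' deposited table gives it a p-value of 0.132. The copy atp1a1a.5 was barely present, with 2.35 FPKM in the mutant and 2.23 FPKM in wild type. The 3 copies did not share a direction or a size of difference: 1 was lower, 1 was higher, and 1 stood within 1.1-fold.

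Of the 8 alpha loci, 1 is not reported here. The other 7 summed to 253 FPKM in the mutant and 294 FPKM in wild type, and without atp1a1a.4 the remaining 6 summed to 172 FPKM in the mutant and 171 FPKM in wild type. The lower sum of the mutant over these 7 loci thus came from atp1a1a.4. These sums are not those of all alpha transcripts.

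Genes that flank the run on chromosome 1 were low in both pools. Of the neighbours within 200000 bases, those with a symbol and a mean of at least 1 FPKM were CLIC6, with 3.73 FPKM in the mutant and 3.49 FPKM in wild type, and a joined locus of si:ch211-132g1.2 and si:ch211-132g1.3, with 4.91 FPKM in the mutant and 6.08 FPKM in wild type. Neither met 1.2-fold.

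The other alpha loci lie on other chromosomes. The further alpha1 copy atp1a1b (chromosome 9, 36954479 to 36975127) had 62.9 FPKM in the mutant and 67.1 FPKM in wild type. The locus atp1a2a, of the alpha2 form that mammals use in muscle and glia, had 31.6 FPKM in the mutant and 28.4 FPKM in wild type, 1.11-fold higher. The alpha3 form is that of neurons, and its loci atp1a3a, with 35.5 FPKM in the mutant and 34.3 FPKM in wild type, and atp1a3b, with 25.1 FPKM in the mutant and 27.5 FPKM in wild type, had differences of opposite sign. The alpha3 sum was 60.6 FPKM in the mutant and 61.8 FPKM in wild type.

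Each of the 7 beta loci stood within 1.1-fold, a rule chosen after the values were seen, which 34.9% of all entering loci were past. The most abundant was atp1b1a, of the widespread beta1 form, which is mutated in the zebrafish skin mutant psoriasis, with 201 FPKM in the mutant and 212 FPKM in wild type. Its copy atp1b1b had 73.7 FPKM in the mutant and 74.8 FPKM in wild type. The beta2 form, a nerve and glia subunit in mammals, had 89.0 FPKM in the mutant and 92.8 FPKM in wild type at atp1b2a, and 19.3 FPKM in the mutant and 20.1 FPKM in wild type at atp1b2b.

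The beta3 and beta4 loci were slightly higher in the mutant. The locus atp1b3b had 119 FPKM in the mutant and 118 FPKM in wild type, and atp1b3a had 62.4 FPKM in the mutant and 57.7 FPKM in wild type. The locus atp1b4, of a form best known from muscle, had 55.2 FPKM in the mutant and 51.9 FPKM in wild type. The beta loci summed to 619 FPKM in the mutant and 627 FPKM in wild type.

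Of the 15 sodium pump loci, 1 was 1.2-fold higher and 1 was 1.2-fold lower, beside 6.06% and 7.48% of all entering loci. The median log2 difference was 0.02, with 8 above 0 and 7 below. The median size of a sodium pump difference, sign aside, was 0.076 on the log2 scale, against 0.096 for all entering loci. Both loci past 1.2-fold were alpha loci of the run on chromosome 1.

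**Figure D3:**
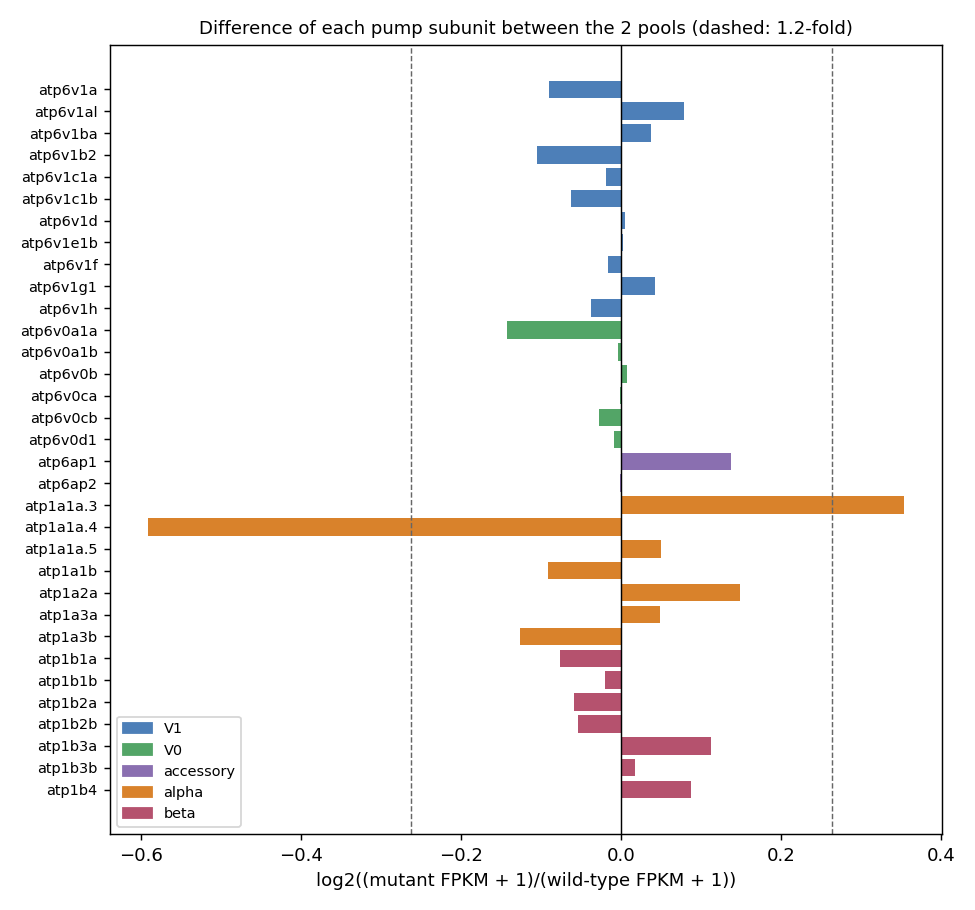
Log2 difference of FPKM + 1 between the lri12 mutant pool and the wild-type pool for each of 33 loci (bars coloured by part of the pump), with dashed lines at 1.2-fold. The bars of atp1a1a.4 (-0.59) and atp1a1a.3 (0.35) cross the lines, and all others lie between -0.14 and 0.15.

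Genes that work with the pumps but carry other symbols were read from lists. Of 26 entering loci of proton pump partners, 1 was 1.2-fold higher and 3 were lower, with a median of -0.0064, beside the 13.5% of all loci past that size either way. Models of the same gene were counted apart, as were entries that share coordinates, such as those of WDR7 (1 of 2) and NCOA7 (1 of 2). The locus listed as tcirg1 (chromosome 1, 45327779 to 45356641), of the a3 subunit that osteoclasts use to dissolve bone, had 4.18 FPKM in the mutant and 6.44 FPKM in wild type, 1.44-fold lower. In the authors' deposited table its p-value was 0.0865 and its q-value 0.999. The symbol tcirg1a, also listed, matched no locus, and which a3 copy the tcirg1 locus holds was not settled. Of 6 osteoclast markers, 3 matched a locus, all within 1.2-fold, and they summed to 32.2 FPKM in the mutant and 29.1 FPKM in wild type. Most of that sum was ctsk, with 27.1 FPKM in the mutant and 23.6 FPKM in wild type. The other markers differed in direction. TNFRSF11A had 3.76 FPKM in the mutant and 4.33 FPKM in wild type, and acp5a had 1.35 FPKM in the mutant and 1.23 FPKM in wild type.

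The other partners past 1.2-fold were also of moderate level. DMXL1 (1 of 3) had 2.85 FPKM in the mutant and 4.61 FPKM in wild type, and DMXL1 (2 of 3) had 6.52 FPKM in the mutant and 8.75 FPKM in wild type. The third model, DMXL1 (3 of 3), stood at -0.17. DMXL1 is related to DMXL2, which with WDR7 forms rabconnectin-3, a complex that helps V1 join V0. The loci of DMXL2 stood at 0.03 and 0.07, and those of WDR7 at -0.04, 0.04 and 0.09. The assembly factor tmem199 had 17.7 FPKM in the mutant and 13.0 FPKM in wild type, with a p-value of 0.66 in the authors' deposited table. The most abundant partners, the aldolases aldoab and aldoaa, had 415 FPKM and 330 FPKM in the mutant, against 413 FPKM and 348 FPKM in wild type.

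Among 19 entering loci of sodium pump partners and related ion pumps, 0 were 1.2-fold higher and 2 were lower. Beside these stand 6.06% and 7.48% of all entering loci, and the list median was -0.04. Both lower ones were calcium pumps of the sarcoplasmic reticulum: atp2a1l had 305 FPKM in the mutant and 512 FPKM in wild type, and atp2a2a had 24.1 FPKM in the mutant and 34.2 FPKM in wild type. The main fast muscle calcium pump, atp2a1, had 2204 FPKM in the mutant and 2327 FPKM in wild type. Next furthest from 0 were 1 of 2 entries of the calcium pump atp2b2 at the same coordinates, at -0.21, with the other at -0.07, and the sodium pump regulator fxyd6, at -0.19. Thus the alpha1 locus atp1a1a.4 was not the sole ion pump gene past 1.2-fold, but the FXYD regulators with a locus, fxyd1, fxyd6 and fxyd11, all stood within it.

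Compartments that the proton pump acidifies were read the same way, again beside 6.06% of all entering loci 1.2-fold higher and 7.48% lower. Of 26 entering loci of lysosome membrane proteins and their regulators, 0 were 1.2-fold higher and 1 was lower, FNIP1 at 4.22 FPKM in the mutant and 5.27 FPKM in wild type, with a median of -0.01. The regulator tfeb, a transcription factor that turns on lysosome genes, had 2.71 FPKM in the mutant and 3.30 FPKM in wild type. The abundant lysosome proteins cd63 and npc2 had 152 FPKM and 141 FPKM in the mutant, against 139 FPKM and 129 FPKM in wild type. Of the membrane proteins and regulators, tmem175 and flcn were next, with log2 differences of -0.21 and -0.20.

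Lysosome hydrolases had 3 of 25 loci 1.2-fold lower and 0 higher, beside 7.48% and 6.06% of all entering loci. Their median was -0.06. Among the lower ones were ARSB (5.90 FPKM in the mutant and 7.56 FPKM in wild type) and ACP2 (31.3 FPKM in the mutant and 37.9 FPKM in wild type), and MAN2B1 followed at -0.25. The abundant psap and pla2g15 had log2 differences of -0.04 and 0.09. Beside the same shares, synaptic vesicle genes had 2 of 21 loci 1.2-fold lower, 0 higher and a median of -0.06. These were the monoamine transporter slc18a2, with 1.22 FPKM in the mutant and 1.75 FPKM in wild type, and synpr, with 3.35 FPKM in the mutant and 4.28 FPKM in wild type. The differences of slc17a7 and sv2c were -0.14 and -0.13, and the abundant sypa and snap25a stood at -0.11 and -0.07.

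Markers of cells that use the pumps heavily were set beside the pump values. For these and the later marker counts, the shares of all entering loci are 6.06% 1.2-fold higher and 7.48% lower. Of 9 entering skin ionocyte markers, 1 was 1.2-fold higher and 0 lower, and they summed to 77.3 FPKM in the mutant and 75.9 FPKM in wild type. The higher one was the chloride cotransporter slc12a10.2, with 6.85 FPKM in the mutant and 5.53 FPKM in wild type. Of the others, rhcgb stood at -0.20, and ca15a and foxi3b at 0.16 and 0.15. Of 7 entering kidney tubule markers, 2 were lower, pdzk1 with 22.6 FPKM in the mutant and 39.1 FPKM in wild type and slc5a12 with 3.39 FPKM in the mutant and 5.54 FPKM in wild type. The kidney sum was 80.7 FPKM in the mutant and 105 FPKM in wild type. Of the others, cdh17 stood at -0.19, slc13a1 at -0.06 and slc20a1a at -0.04. The symbol slc12a1 has 2 entering loci of opposite sign, at 0.25 and -0.14.

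Intestine markers were the list furthest from 0. Of 8 loci, 6 were 1.2-fold lower and 1 was 1.2-fold higher, with a median of -0.81, and none was at 0. They summed to 2909 FPKM in the mutant and 3747 FPKM in wild type. The chitinase gene chia.3 stood at -1.56, fabp6 at -1.17, slc15a1b at -0.94, fabp2 at -0.83 and the locus of apoa4 at -0.79. Less far from 0 were vil1l, at -0.27, and apoa1, at 0.08. The higher one was cdx1b, with 2.59 FPKM in the mutant and 1.94 FPKM in wild type. The intestine and kidney tubule sums were thus lower in the same pool as atp1a1a.4. So were sums of other lists, among them hair cells, with 114 FPKM in the mutant and 142 FPKM in wild type. The sums of fast muscle and skin ionocytes were higher in the mutant. Even so, 4 of the 7 fast muscle markers were lower in the mutant, with a list median of -0.05. The skin ionocyte sums were close, at 77.3 FPKM in the mutant and 75.9 FPKM in wild type. The part of any of these tissues in the value of atp1a1a.4 was not tested.

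The fast muscle and neuron markers stood within 1.2-fold, as did the pump forms known from muscle and nerve. Of these forms, atp1a2a (0.15) and atp1a3b (-0.13) were the furthest from 0. The sarcoplasmic reticulum pumps atp2a1l and atp2a2a and the synaptic vesicle genes slc18a2 and synpr, read above, were past 1.2-fold. All 7 fast muscle markers stood within 1.2-fold, from -0.09 for tnnt3b to 0.17 for mylz2. All 8 neuron markers did too, from -0.11 for stmn2b to 0.16 for elavl4. Among 5 entering heart markers the natriuretic peptide gene nppa was past 1.2-fold, with 12.7 FPKM in the mutant and 8.35 FPKM in wild type, while vmhc, myl7, tnnt2a and cmlc1 stood between -0.11 and 0.13. Of 3 entering hair cell markers, s100s and pvalb9 were lower, at -0.41 and -0.28, and myo6b stood at -0.10.

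**Figure D4:**
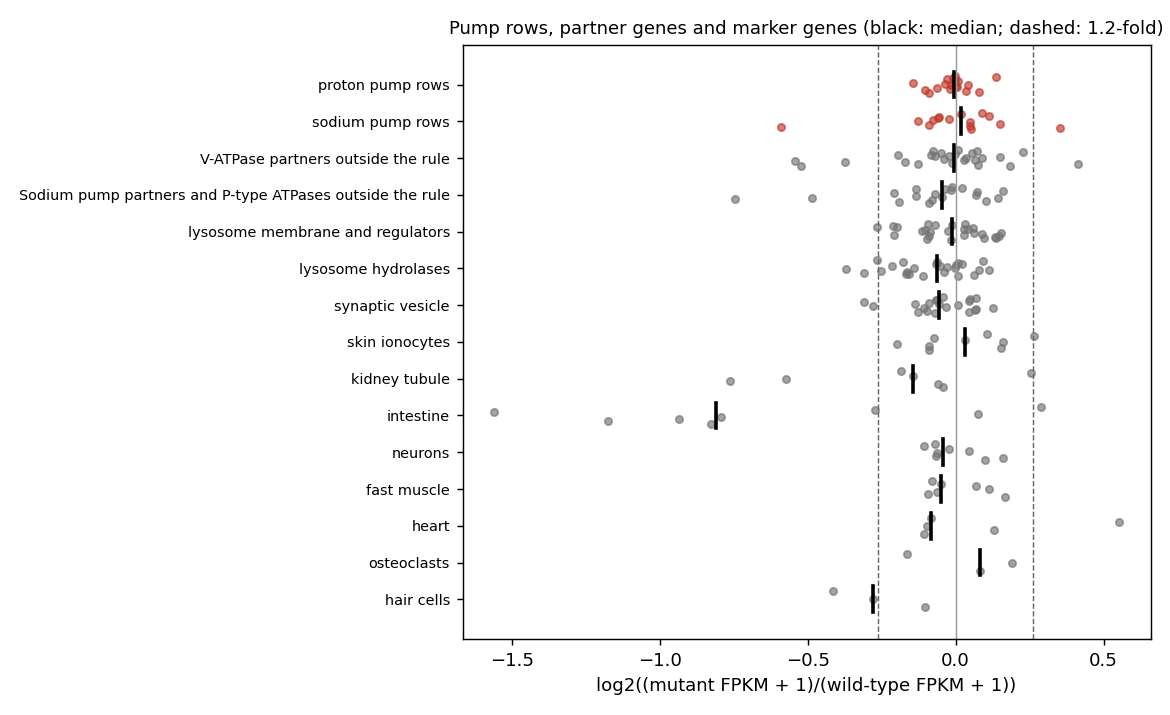
Log2 difference of FPKM + 1 between the lri12 mutant pool and the wild-type pool for each entering locus (points) of the proton pump, the sodium pump, their partners and marker lists, with the median in black and 1.2-fold dashed. The medians of the proton pump (-0.0044) and of the sodium pump (0.02) lie close to 0, and the intestine median lies at -0.81.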

How the data were processed

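RNA of 2 samples was sequenced, and the data were 1 table of 40114 loci. Its FPKM values, 1 for each pool of 20 larvae, were made by the authors: the column names are those of Cuffdiff, per the file headers, and no label states the unit. CASAVA, Bowtie and build Zv9 are named without versions in the submitters' processing notes. For annotation, strand and reads with several matches, the setting is not given in the sources used here. From the same deposited table come p-values and q-values, which the authors made from 1 pool per genotype.

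Loci without a symbol (8509) and failed estimates (19 in the table) were left out, as were loci with a mean under 1 FPKM, which left 18902. Each was compared as log2((mutant + 1)/(wild type + 1)) with pandas 2.3.3, with no test. The calculation was tried on simulated data with set folds and no noise, which checks the counting alone and not the differences between libraries. Members, lists and the 1.2-fold rule were chosen with earlier results of these data known. The plan was to name, of each list, the 4 loci furthest from 0 and the 2 highest in wild type. In the neuron and fast muscle lists some of these were left out. Further loci were named after their values were seen. List symbols were matched as written, in capitals or by RefSeq synonyms (assembly GRCz12tu, names only). Coordinates are Zv9 as the authors deposited them, where a start of 0 occurs, so starts are not counted from 1. Values of 1 sodium pump locus, which entered the counts and medians, and of 1 listed lysosome gene are not reported here.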

Additional observations from a re-analysis of the deposited data

How the results depend on the processing

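The counts past 1.2-fold and the medians of both pumps were recomputed under 9 alternatives: a pseudocount of 0.1 or 5, all low loci kept, a minimum of 5 FPKM on average, rescaling to a median of 0, joined loci left out, symbols in any case, summing of shared symbols, and tested loci alone. All 54 values kept their count or stayed within 0.1 of the median. Several alternatives could not move them. Keeping low loci, summing shared symbols and using tested loci alone left the same 34 loci with the same values. The minimum of 5 FPKM and the loss of joined loci left the proton pump loci as they were. The tolerance of 0.1 is also wide beside the median size of a proton pump difference, 0.028. The proton pump median ran from -0.0088 to -0.0030 and the sodium pump median from -0.0014 to 0.02, with a sign that depends on the loci entering. The difference of atp1a1a.4 ran from -0.60 to -0.57 and that of atp1a1a.3 from 0.27 to 0.38. Of the 34 loci, 1 turned its sign, atp6v1e1b, between -0.0020 and 0.0025. No paired analysis was possible because each genotype has 1 pool, and for the same reason no replicate could be left out. Depth is unknown, so no counting error can be given.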
